A study of Mus musculus with 6 samples.

Results

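The genes described here are 10 integrin chains that bind extracellular matrix or guide leukocytes to tissues. They are the alpha chains Itga1, Itga4, Itga5, Itga6, Itga9 and Itgav and the beta chains Itgb1, Itgb3, Itgb5 and Itgb7. They were chosen by name from the deposited count table, leaving aside the CD11 and beta 2 chains, and are 10 of 57180 genes in that table. Cultures of the group IL-4+CGRP were bone marrow-derived macrophages from wild-type (WT) mice that received 2 agents, IL-4, a type 2 cytokine of alternatively activated macrophages, and CGRP, a neuropeptide of pain-sensing nerves. Cultures of the group IL-4 were the same kind of cell and received IL-4 without CGRP. In both groups the mice were 6 to 8 weeks old, marrow was differentiated for 7 days in M-CSF at 20 ng/mL, IL-4 was given at 20 ng/mL, and treatment lasted 24 h. The dose of CGRP is not printed, since its label is ambiguous. There were 3 RNA-seq libraries per group, with total counts between 20088859 and 24060440. No label says that the libraries came from separate mice or cultures, so every p-value reflects only how far these libraries differ, which may be technical. No culture without IL-4 is analysed here.

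An integrin is a receptor made of an alpha and a beta chain, and the pair of chains decides the ligand. Itgb1 joins many alpha chains, among them those for collagen (alpha 1), laminin (alpha 6) and fibronectin (alpha 5). Alpha 4 joins either beta 1, to bind VCAM1 and fibronectin, or beta 7, to bind the gut addressin MAdCAM1. Alpha v joins beta 3 or beta 5 to bind vitronectin and other proteins that carry the RGD motif, and macrophages use these pairs to take up dying cells and to attach to matrix. RNA levels give no measure of how the chains pair or of how much reaches the cell surface.

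The marker genes of macrophages were present at high level in every library, and those of erythroid cells were at or near 0. The 12 listed macrophage markers summed to between 20259 and 21271 CPM (counts scaled to library size) in the IL-4+CGRP libraries and between 20510 and 20870 CPM in the IL-4 libraries, and all 12 had counts. By edgeR 2 of the 12 rose (16.7%, against 2.32% of all tested genes) and 0 fell. These were Cd14, 1.53-fold higher (edgeR adjusted p = 5.9e-04), and Itgam, 1.33-fold higher (edgeR adjusted p = 0.0012). Monocyte, B cell, neutrophil and eosinophil markers gave summed levels whose ranges overlapped between the groups, although by edgeR the monocyte marker Ccr2 (adjusted p = 0.018) and the eosinophil marker Siglecf (adjusted p = 0.0019) fell. Dendritic cell markers summed to between 354 and 368 CPM in IL-4+CGRP and between 429.9 and 442 CPM in IL-4. Without Itgax, which is on that list, the ranges overlapped, at 286 to 311 CPM in IL-4+CGRP and 282 to 291 CPM in IL-4. Among the others on it, Ccr7 rose (edgeR adjusted p = 0.0068) and Siglech fell (edgeR adjusted p = 0.022). The Ccr2 call ended with replicate 1 of IL-4+CGRP or any IL-4 library left out, and with the replicate number as a block. The Siglech call ended with replicate 1 of IL-4+CGRP or replicate 2 or 3 of IL-4 left out, and the Ccr7 call with replicate 2 of IL-4 left out. IL-4+CGRP replicate 2 stood apart from its group. The first principal component held 37.6% of the variance, and this library scored -0.169 on it, while the rest of its group scored 21.98 and 27.0 and the IL-4 libraries scored between -26.0 and -11.2. Results on the integrins are therefore given with and without this library.

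The promoters of the members that rose are shown first, because these are the genes on which the comparison turns. RefSeq promoter sequences (build GRCm38.p6, from 250 bases before the annotated start to 50 bases after it) were available for 8 of the 10 members. They were searched on both strands for 4 motifs, which can overlap each other. These were TGACGTCA, the cAMP response element bound by CREB, and TGACG, which is part of it. The others were TTC and GAA 4 bases apart, a spacing bound by STAT6, and GAGGAA, the core of sites for the macrophage factor PU.1. Matches to any of the 4 are in capitals. The 3 sequences are from chr13:115101915-115102214 on the minus strand (Itga1), chr9:118711442-118711741 on the plus strand (Itga9) and chr15:102231886-102232185 on the minus strand (Itgb7).
Itga1: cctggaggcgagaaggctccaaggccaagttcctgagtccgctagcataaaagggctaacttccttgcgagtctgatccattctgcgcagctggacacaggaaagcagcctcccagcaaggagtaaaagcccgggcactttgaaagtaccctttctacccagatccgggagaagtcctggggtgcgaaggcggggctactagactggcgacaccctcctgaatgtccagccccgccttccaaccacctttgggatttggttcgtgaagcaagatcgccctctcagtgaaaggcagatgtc
Itga9: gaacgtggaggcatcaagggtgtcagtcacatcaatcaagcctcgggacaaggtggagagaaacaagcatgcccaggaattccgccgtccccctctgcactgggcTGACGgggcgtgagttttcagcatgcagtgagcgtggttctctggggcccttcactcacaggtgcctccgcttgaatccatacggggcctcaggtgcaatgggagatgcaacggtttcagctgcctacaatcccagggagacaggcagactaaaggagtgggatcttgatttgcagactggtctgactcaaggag
Itgb7: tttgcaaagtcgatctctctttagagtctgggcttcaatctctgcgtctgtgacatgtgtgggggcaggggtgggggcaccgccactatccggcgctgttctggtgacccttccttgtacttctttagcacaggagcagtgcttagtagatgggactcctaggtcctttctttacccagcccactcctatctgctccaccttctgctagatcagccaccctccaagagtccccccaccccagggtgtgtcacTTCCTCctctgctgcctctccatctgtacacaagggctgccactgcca
The Itga1 window held none of the 4 motifs. The Itga9 window held a single TGACG, which begins 145 bases before the start, and the Itgb7 window a single GAGGAA on the opposite strand, which begins 3 bases after the start. Among the 32851 promoter windows in the table, 1.79% held TGACGTCA, 20.8% TGACG, 6.95% TTC and GAA at that spacing and 28.3% GAGGAA. Of the other 5 windows, that of Itgb1, a member that was not called, also held a TGACG, and those of Itga5, Itgav and Itgb1 held GAGGAA. A match is only a run of letters in these windows, and factor binding was not measured.

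CGRP added to IL-4 went with higher RNA for the alpha 1, alpha 9 and beta 7 chains and lower RNA for the alpha 5 chain. By the edgeR quasi-likelihood test, 3 of the 10 members were higher at an adjusted p under 0.05, namely Itga1, Itga9 and Itgb7, and 1 was lower, Itga5. Across all 13260 genes tested, 2.32% were called higher (307 genes), 1.54% lower (204 genes) and 3.85% either way. At least 2024 of the 13260 had an unadjusted edgeR p under 0.05 in either direction, the background for every count at that level below. With scaling by library totals only, the split over all genes was 354 higher and 143 lower. Leaving out IL-4+CGRP replicate 2 gave 915 higher and 950 lower genes, and leaving out any other single library gave 140 to 194 higher and 80 to 119 lower. All 10 members passed the filter on low counts. Itga1, with 7, 15 and 25 counts in IL-4, did so through its IL-4+CGRP libraries, where it was high. Without a count filter its log2 fold change was also 2.65. The members had a median log2 fold change of 0.044, against -0.00423 over all tested genes, with 7 values above 0 and 3 below. In 5 of the 10 the groups did not overlap, 4 higher and 1 lower in IL-4+CGRP, while among all tested genes this held for 11.1% higher, 9.92% lower and 21% either way. The plot of CPM by library shows each gene in each of the 6 libraries.

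**Figure D1:**
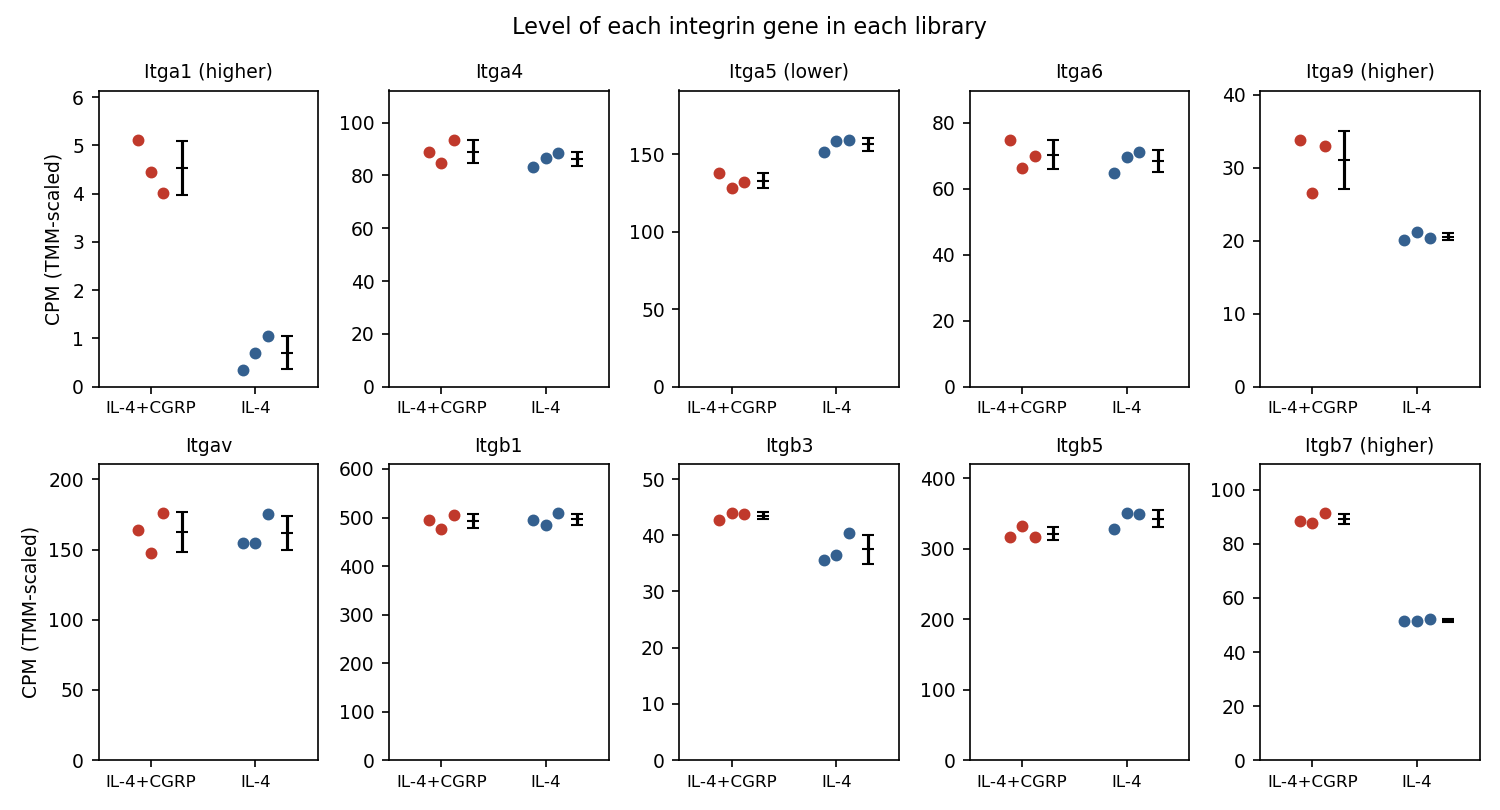
CPM of the 10 integrin genes in each library (points), with IL-4+CGRP left of IL-4 and the mean and SD of 3 libraries beside the points; every axis starts at 0. Itga1, Itga9, Itgb3 and Itgb7 have all 3 IL-4+CGRP libraries above all 3 IL-4 libraries, and Itga5 has them below.

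The collagen receptor chain Itga1 (ENSMUSG00000042284), which pairs with Itgb1 and also binds laminin, had 124, 97 and 89 counts in IL-4+CGRP replicates 1 to 3, against 7, 15 and 25 counts in IL-4 replicates 1 to 3. Scaled to library size these were 5.12, 4.45 and 4.01 CPM in IL-4+CGRP and 0.354, 0.704 and 1.04 CPM in IL-4. Every IL-4+CGRP library was above every IL-4 library, and the IL-4 libraries differed among themselves by more than the IL-4+CGRP libraries did relative to their mean. Itga1 averaged 4.53 ± 0.557 CPM in IL-4+CGRP and 0.700 ± 0.344 CPM in IL-4 (SD, n = 3 each). The gene was 6.29-fold higher, a log2 fold change of 2.65 ± 0.29 (SE; 95% interval 2.03 to 3.28), with an edgeR adjusted p = 3.0e-04. Summed counts were 310 in IL-4+CGRP and 47 in IL-4. Their ratio per TMM-scaled library total was 6.29, with an exact 95% interval of 4.62 to 8.74 that covers counting error only. Among all 13260 tested genes it had the 20th highest log2 fold change. Without IL-4+CGRP replicate 2 the log2 fold change was 2.66 (edgeR adjusted p = 2.1e-05).

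Even in IL-4+CGRP cultures Itga1 was the scarcest of the 10 chains. Per kilobase of the listed gene length its level was 0.413 ± 0.0508 CPM per kb in IL-4+CGRP and 0.0639 ± 0.0314 CPM per kb in IL-4 (SD, n = 3 each), and its ratio to the partner chain Itgb1 on that scale was 0.0032 in IL-4+CGRP and 0.000489 in IL-4. Several genes lie within or across Itga1 in the GENCODE M21 annotation. Pelo, a ribosome rescue factor on the same strand that shares no exon bases with it, had 269, 257 and 214 counts in IL-4+CGRP and 201, 190 and 236 counts in IL-4. Gm49395, which shares 685 exon bases with Itga1, had 0, 0 and 4 counts in IL-4+CGRP and 0, 0 and 1 in IL-4. The antisense gene Gm10734 had 13, 11 and 0 counts in IL-4+CGRP and 3, 5 and 2 in IL-4. Whether strand was used in counting is not stated in the labels or notes, so some reads near these genes could be assigned either way.

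Itga1 is known from fibroblasts and other stromal cells. Of 10 fibroblast and stromal markers, 8 were tested and 0 were called by edgeR, 0 by DESeq2 and 0 by limma-voom, with 2 higher at an unadjusted p under 0.05. These markers summed to between 54.1 and 59.8 CPM in the IL-4+CGRP libraries and between 48.1 and 52.2 CPM in the IL-4 libraries. Of the 8 tested, 6 had a log2 fold change above 0 and 2 below, with a median of 0.11 against -0.00423 over all tested genes. Groups did not overlap in 2 of the 8, both higher in IL-4+CGRP, while 11.1% of all tested genes were higher without overlap. Col3a1, a fibrillar collagen, measured 3.45 ± 0.833 CPM in IL-4+CGRP and 2.08 ± 0.290 CPM in IL-4 (SD, n = 3 each, edgeR adjusted p = 0.11). Pdgfra, another marker of fibroblasts, had 32, 16 and 9 counts in IL-4+CGRP and 16, 20 and 20 in IL-4. Itga1 is also known from small vessels. Of 6 endothelial markers 4 were tested and 2 rose by edgeR, Pecam1 and Kdr, the first of which macrophages also express, while DESeq2 and limma-voom called Pecam1 and not Kdr. The Kdr call (edgeR adjusted p = 0.046) also ended without any single library other than IL-4+CGRP replicate 2. It ended too with the replicate number as a block and with a dispersion estimate that is not robust. The 6 summed to between 179 and 200.1 CPM in IL-4+CGRP and between 139 and 157 CPM in IL-4. The part of these cells in the level of Itga1 was not tested. In bulk RNA, a change in the number of cells of a type and a change in RNA per cell cannot be told apart.

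The laminin receptor chain Itga6 (ENSMUSG00000027111) measured 74.9, 66.3 and 70.0 CPM in IL-4+CGRP and 64.8, 69.6 and 71.1 CPM in IL-4. The groups overlapped, and the lowest library of all 6 was IL-4 replicate 1. Its log2 fold change was 0.040 ± 0.062 (SE; 95% interval -0.096 to 0.18), with an edgeR adjusted p = 0.80.

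The fibronectin receptor chain Itga5 (ENSMUSG00000000555), whose pair with beta 1 is the classic receptor of cells spreading on fibronectin, measured 138, 128 and 132 CPM in IL-4+CGRP and 151, 158 and 159 CPM in IL-4. All 3 IL-4+CGRP libraries lay below all 3 IL-4 libraries, with a gap between IL-4+CGRP replicate 1 and IL-4 replicate 1 that was larger than the spread within either group. Itga5 averaged 133 ± 4.91 CPM in IL-4+CGRP and 156 ± 4.35 CPM in IL-4 (SD, n = 3 each). It was 1.18-fold lower, a log2 fold change of -0.24 ± 0.053 (SE; 95% interval -0.35 to -0.12), with an edgeR adjusted p = 0.030. This call was close to the threshold. It ended with scaling by library totals only (edgeR adjusted p = 0.072). Leaving out IL-4+CGRP replicate 1 or 3 also ended it (edgeR adjusted p = 0.064 and 0.10), as did leaving out any 1 of the 3 IL-4 libraries (edgeR adjusted p = 0.066, 0.15 and 0.15). When IL-4+CGRP replicate 2 was the one left out, it passed at a log2 fold change of -0.21 (edgeR adjusted p = 0.0078).

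Itgb7 rose, while Itga4, the alpha chain it shares with Itgb1, did not pass the test. Itgb7 (ENSMUSG00000001281), which pairs with alpha 4 and with alpha E and is known for homing of lymphocytes to the gut, measured 88.4, 87.7 and 91.3 CPM in IL-4+CGRP and 51.3, 51.4 and 52.1 CPM in IL-4. The libraries of each group lay close together and the groups were far apart. Itgb7 averaged 89.1 ± 1.89 CPM in IL-4+CGRP and 51.6 ± 0.417 CPM in IL-4 (SD, n = 3 each), 1.73-fold higher, with a log2 fold change of 0.79 ± 0.051 (SE; 95% interval 0.68 to 0.90) and an edgeR adjusted p = 5.4e-06. It had the 11th smallest p-value of the 13260 genes tested. Without IL-4+CGRP replicate 2 its log2 fold change was 0.80 (edgeR adjusted p = 1.6e-08).

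Itga4 (ENSMUSG00000027009) measured 88.9, 84.8 and 93.5 CPM in IL-4+CGRP and 83.3, 86.6 and 88.5 CPM in IL-4. The groups overlapped, and the log2 fold change was 0.048 ± 0.056 (SE; 95% interval -0.074 to 0.17) with an edgeR adjusted p = 0.73. The level of Itga4 is uncertain to the extent that reads are shared with Cerkl on the opposite strand, which overlaps 1124 of its exon bases and had 135, 73 and 114 counts in IL-4+CGRP and 102, 104 and 100 in IL-4. Against this partner, Itgb7 stood at a ratio of 3.65 ± 0.107 in IL-4+CGRP and 2.18 ± 0.0529 in IL-4 (CPM per kb of Itgb7 over CPM per kb of Itga4; SD, n = 3 each). Itgae, the other alpha partner of beta 7, had between 4 and 9 counts in every library and was not tested.

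Itgb7 is also known from lymphocytes and mast cells. Of 10 T and NK cell markers, 7 were tested and 0 were called by edgeR, 0 by DESeq2 and 0 by limma-voom, with 1 higher at an unadjusted p under 0.05, namely Cd4, which macrophages can also express. These markers summed to between 89.5 and 93.5 CPM in IL-4+CGRP and between 81.1 and 90.3 CPM in IL-4. Cd3e, part of the T cell receptor complex, had 12, 10 and 4 counts in IL-4+CGRP and 3, 10 and 8 in IL-4. Of 8 mast cell and basophil markers, 5 were tested and 0 were called by any of the 3 tools, with 1 lower at an unadjusted p under 0.05. They summed to between 6.67 and 7.72 CPM in IL-4+CGRP and between 8.70 and 9.51 CPM in IL-4. All 5 tested had a log2 fold change below 0. Kit had 61, 51 and 51 counts in IL-4+CGRP and 65, 64 and 82 in IL-4 (edgeR adjusted p = 0.23). Cpa3 had 34, 33 and 29 counts in IL-4+CGRP and 35, 36 and 40 in IL-4 (edgeR adjusted p = 0.61). Mcpt4 had 0 counts in every library. The part of such cells in the level of Itgb7 was not tested.

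Itga9 (ENSMUSG00000039115), which pairs with beta 1 to bind tenascin C, osteopontin and VCAM1, measured 33.8, 26.5 and 32.9 CPM in IL-4+CGRP and 20.1, 21.2 and 20.4 CPM in IL-4. The groups did not overlap, although IL-4+CGRP replicate 2 lay below the other libraries of its group. Itga9 averaged 31.1 ± 3.98 CPM in IL-4+CGRP and 20.6 ± 0.529 CPM in IL-4 (SD, n = 3 each). It was 1.51-fold higher, a log2 fold change of 0.60 ± 0.095 (SE; 95% interval 0.39 to 0.80), with an edgeR adjusted p = 0.0040. Without IL-4+CGRP replicate 2 the log2 fold change was 0.70 (edgeR adjusted p = 6.0e-06). The antisense gene Gm2415, which shares no exon bases with Itga9, had 19, 19 and 12 counts in IL-4+CGRP and 8, 14 and 37 in IL-4.

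Of the alpha v receptor chains, none passed the edgeR test. Itgav (ENSMUSG00000027087) measured 164, 147 and 176 CPM in IL-4+CGRP and 155, 154 and 176 CPM in IL-4, overlapping ranges with the highest and the lowest library of all 6 in IL-4+CGRP. Its log2 fold change was 0.0071 ± 0.074 (SE; 95% interval -0.16 to 0.17), with an edgeR adjusted p = 0.97. Itgb3 (ENSMUSG00000020689), the partner that also forms the platelet fibrinogen receptor with Itga2b and is high on osteoclasts, measured 42.7, 43.9 and 43.7 CPM in IL-4+CGRP and 35.7, 36.4 and 40.4 CPM in IL-4. These groups did not overlap, but the log2 fold change of 0.21 ± 0.066 (SE; 95% interval 0.068 to 0.36) had an edgeR adjusted p = 0.12, and an adjusted p = 0.052 without IL-4+CGRP replicate 2. Itgb5 (ENSMUSG00000022817), which serves uptake of dying cells together with alpha v, measured 316, 332 and 316 CPM in IL-4+CGRP and 328, 350 and 349 CPM in IL-4. Its groups overlapped at IL-4+CGRP replicate 2 and IL-4 replicate 1, and the log2 fold change was -0.091 ± 0.048 (SE; 95% interval -0.20 to 0.014) with an edgeR adjusted p = 0.39. Without those 2 libraries, whose removal ends the overlap, Itgb5 passed as lower, at a log2 fold change of -0.15 (edgeR adjusted p = 0.0031). That fit called 1066 higher and 1187 lower of 13370 genes tested, against 307 and 204 of 13260 with all libraries. It was the only 1 of the 17 other ways of processing in which Itgb5 passed.

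Osteoclast and platelet markers were measured beside Itgb3. Of 10 osteoclast markers, which include Itgb3 itself, 8 were tested, 4 fell and 0 rose by edgeR, DESeq2 and limma-voom. The only one higher at an unadjusted p under 0.05 was Itgb3 itself. The 4 were Ocstamp and Dcstamp, which serve cell fusion, Acp5, a phosphatase, and Atp6v0d2, a proton pump subunit. The calls of Acp5 and Atp6v0d2 ended without any single library other than IL-4+CGRP replicate 2, and with the replicate number as a block. That of Atp6v0d2 also ended with scaling by library totals only. The list summed to between 842 and 885 CPM in IL-4+CGRP and between 952 and 985 CPM in IL-4, or without Itgb3 to between 798 and 842 CPM in IL-4+CGRP and between 912 and 949 CPM in IL-4. Calcr had 0 counts throughout. Of 7 megakaryocyte and platelet markers 0 were called by edgeR, and DESeq2 and limma-voom called 1 higher, Pf4, at 49.0 ± 12.1 CPM in IL-4+CGRP and 24.6 ± 2.61 CPM in IL-4 (SD, n = 3 each; edgeR adjusted p = 0.059). At an unadjusted p under 0.05, 1 of these was higher and 1 lower. They summed to between 70.4 and 94.2 CPM in IL-4+CGRP and between 52.2 and 55.2 CPM in IL-4. The part of such cells in the level of Itgb3 was not tested.

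The common beta chain Itgb1 (ENSMUSG00000025809) was the most abundant of the 10 and measured 496, 477 and 506 CPM in IL-4+CGRP and 496, 485 and 509 CPM in IL-4. The groups overlapped almost wholly. Its log2 fold change was -0.011 ± 0.044 (SE; 95% interval -0.11 to 0.086), with an edgeR adjusted p = 0.93, the narrowest interval of the 10 genes. The plot of log2 fold changes sets the 10 intervals side by side.

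**Figure D2:**
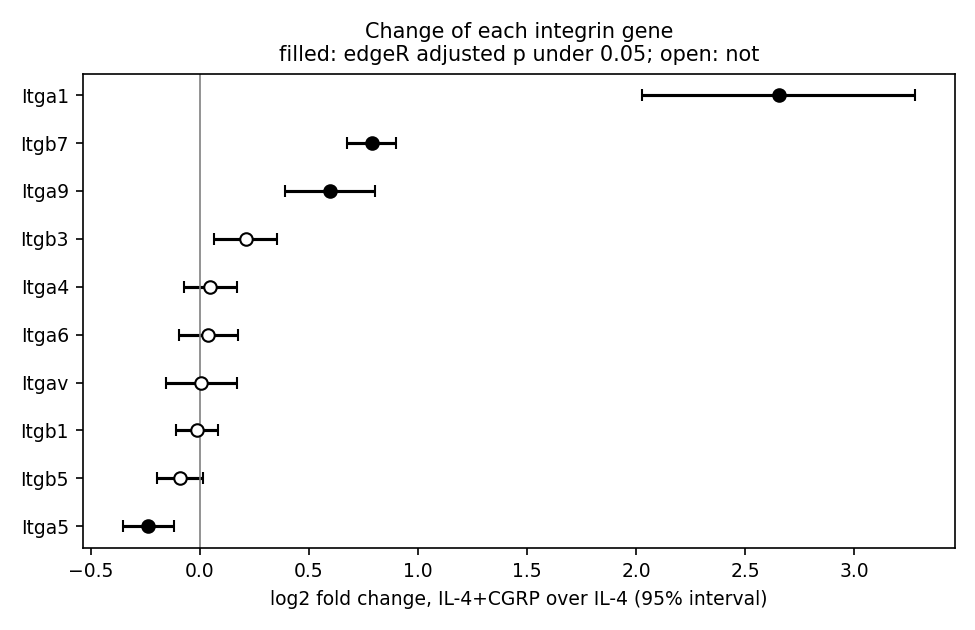
Log2 fold change of each integrin gene, IL-4+CGRP over IL-4, with its 95% interval from the edgeR fit; filled points passed an adjusted p of 0.05. Itga1 (2.65), Itgb7 (0.79) and Itga9 (0.60) lie above 0, Itga5 (-0.24) lies below, and the other 6 are open points.

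Compared per kilobase of listed gene length, the order of the chains differed between the groups only in the place of Itgb7. In IL-4+CGRP cultures Itgb1 stood highest at 129 ± 3.84 CPM per kb, followed by Itgb5 at 105 ± 3.06, Itgb7 at 33.2 ± 0.703, Itga5 at 30.3 ± 1.12, Itgav at 23.0 ± 2.03 and Itga6 at 20.7 ± 1.26 CPM per kb (SD, n = 3 for each). Itga4 (9.12 ± 0.444), Itgb3 (7.51 ± 0.106), Itga9 (4.43 ± 0.567) and Itga1 followed, all in CPM per kb. In that order Itgav and Itga6 were the only neighbours whose libraries overlapped. In IL-4 cultures Itgb7, at 19.2 ± 0.156 CPM per kb, came after Itga5 (35.7 ± 0.992), Itgav (22.9 ± 1.72) and Itga6 (20.2 ± 0.968), and only Itga6 and Itgb7 were neighbours with overlapping libraries. These lengths are as the table lists them, and a shorter transcript in use would raise the level of its gene on this scale.

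The make-up of the beta chain RNA differed most in the share of Itgb7. As a share of the summed level of the 4 beta chains, Itgb7 held between 11.9% and 12.3% in the IL-4+CGRP libraries and between 7.09% and 7.28% in the IL-4 libraries. Its ratio to Itgb1 was 0.257 ± 0.00394 in IL-4+CGRP and 0.148 ± 0.00262 in IL-4 (SD, n = 3 each). Itgb5 held 38.2 ± 1.27% in IL-4+CGRP and 41.8 ± 0.995% in IL-4, and Itgb3 2.73 ± 0.0354% in IL-4+CGRP and 2.42 ± 0.113% in IL-4. Among the 6 alpha chains Itga5 held 34.4 ± 1.04% in IL-4+CGRP and 39.4 ± 0.736% in IL-4, Itga9 5.02 ± 0.384% in IL-4+CGRP and 3.24 ± 0.132% in IL-4, and Itga1 0.469 ± 0.0568% in IL-4+CGRP and 0.0697 ± 0.0319% in IL-4 (SD, n = 3 each). The summed level of all 10 chains was 363 ± 5.86 CPM per kb in IL-4+CGRP and 358 ± 9.27 CPM per kb in IL-4, with overlapping libraries. Shares within a sum depend on each other, and they were not tested.

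**Figure D3:**
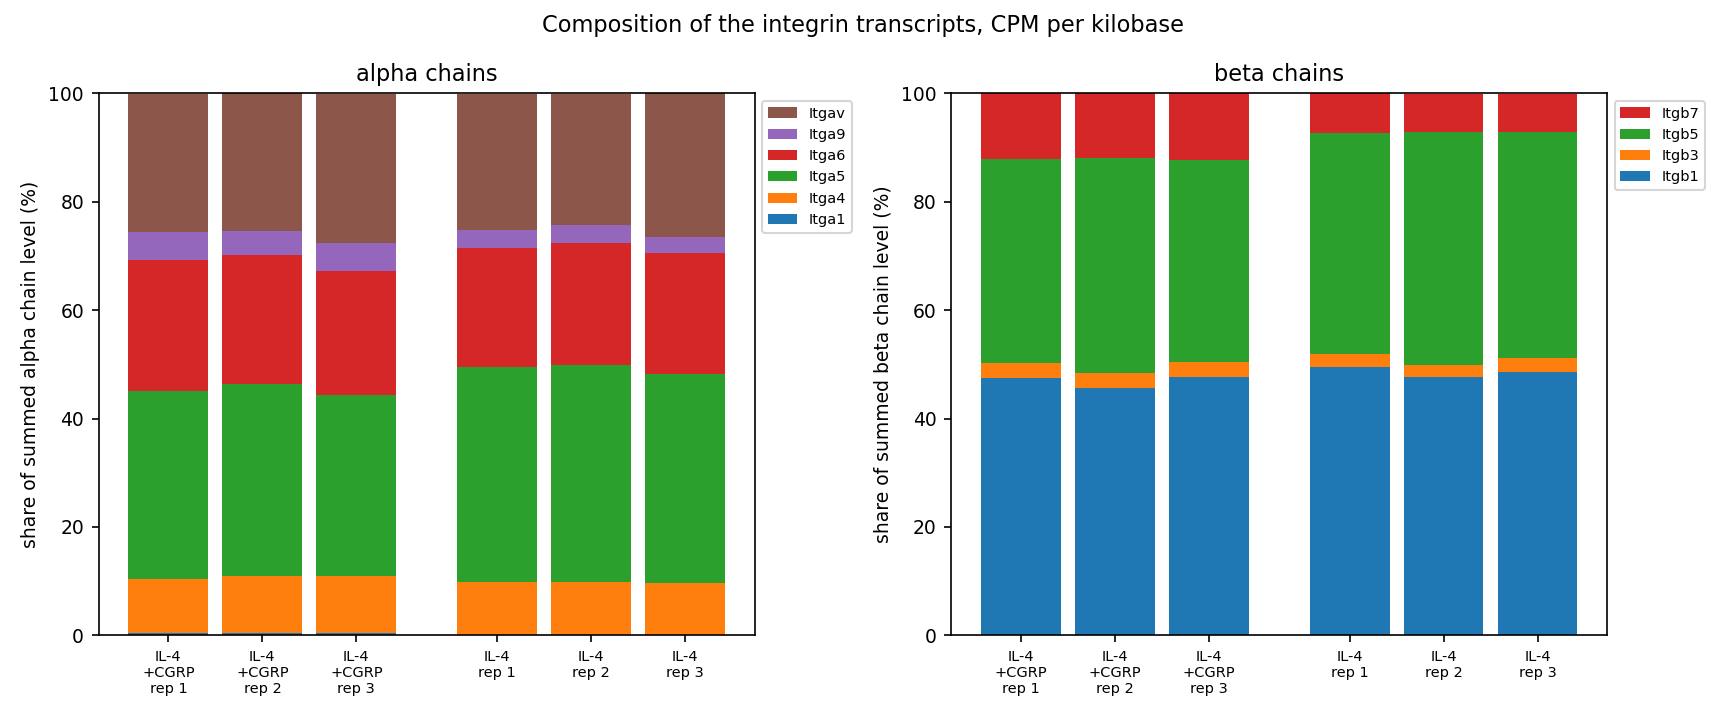
Share of each alpha chain (left) and each beta chain (right) in the summed level of that kind of chain, in CPM per kb, for each library, with IL-4+CGRP left of IL-4. Itgb7 takes 11.9% to 12.3% of the beta chain bars in IL-4+CGRP and 7.09% to 7.28% in IL-4; Itga1 is too scarce to be seen clearly.

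The ligands that these receptors bind were described from a list of 46 matrix and cell surface genes, of which 39 were tested. By edgeR 4 were higher (10.3%) and 0 lower, against 2.32% and 1.54% of all tested genes. DESeq2 called 2 higher and 0 lower, and limma-voom 3 and 0. At an unadjusted edgeR p under 0.05, 12 were higher and 3 lower. At least 2024 of the 13260 tested genes passed that level in either direction. The median log2 fold change of the 39 was 0.14, against -0.00423 over all tested genes, with 33 of the 39 above 0. These values were taken without removal of a gene length trend. With that trend removed, the log2 fold changes of the 4 called ligands were lower, such as 0.42 against 0.47 for Tnc. In that fit 6 ligands were higher and 1 lower, against 471 and 389 genes over all. Edil3 (Del-1, a secreted RGD protein that binds the alpha v pairs) had 68, 51 and 60 counts in IL-4+CGRP, against 2, 1 and 3 counts in IL-4. The groups were far apart, but the gene was scarce in both. It passed the filter on low counts through its IL-4+CGRP libraries, where it was high. Its log2 fold change was 4.75 with that filter and 4.75 without a count filter. Summed over libraries, the ratio per TMM-scaled library total was 28.4 with an exact 95% interval of 12.8 to 78.5 (counting error only). The edgeR adjusted p was 2.4e-05. With a mean count of at least 50 required, Edil3 was not tested.

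Thbs1 (thrombospondin 1, a matrix glycoprotein that binds several integrins) reached 338, 300.5 and 338 CPM in IL-4+CGRP, against 70.0, 80.8 and 76.8 CPM in IL-4, the smallest p-value of all genes tested (edgeR adjusted p = 2.8e-08). Tnc, which encodes the alpha 9 ligand tenascin C, measured 6.97, 7.03 and 7.12 CPM in IL-4+CGRP and 4.96, 5.12 and 5.17 CPM in IL-4, a log2 fold change of 0.47 ± 0.11 (SE; edgeR adjusted p = 0.043). Col18a1, a basement membrane collagen, had a log2 fold change of 0.47 ± 0.10 (SE; edgeR adjusted p = 0.023). DESeq2 did not call Tnc or Col18a1, and both calls ended with the replicate number as a block. Both also ended when any IL-4 library, or replicate 1 of IL-4+CGRP, was left out. The Tnc call also ended under limma-voom and with replicate 3 of IL-4+CGRP left out. Leaving out IL-4+CGRP replicate 2 gave 11 higher and 2 lower ligands, against 915 higher and 950 lower of all 13492 genes tested in that fit. Leaving out any other single library gave 2 or 3 higher ligands.

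Other named ligands did not pass the edgeR test. Vcam1, which alpha 4 and alpha 9 bind, had a log2 fold change of 0.086 (edgeR adjusted p = 0.60), Fn1 (fibronectin) 0.11 (adjusted p = 0.64), and Spp1 (osteopontin) -0.14 (adjusted p = 0.083). Mfge8, which bridges dying cells to the alpha v pairs, had a log2 fold change of -0.12 (edgeR adjusted p = 0.17). Vtn (vitronectin) had 0 counts in every library and Madcam1 at most 1, and Ccn3, Fbln5, Lama1, Lama2 and Lama5 had at most 13 in any library.

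In a list of 50 genes of the adhesion machinery on the inner side of integrins, 49 were in the table and 46 were tested. Of these, 2 rose and 2 fell (4.35% each), against 2.32% and 1.54% of all tested genes. The median log2 fold change was 0.0085. Tns1 (tensin 1, which ties integrin tails to actin) measured 260.5, 241 and 268 CPM in IL-4+CGRP and 182, 196 and 194 CPM in IL-4, 1.34-fold higher (edgeR adjusted p = 0.0012). Dab2, an adaptor for endocytosis of integrins, was 1.49-fold higher at 673 ± 74.2 CPM in IL-4+CGRP and 452 ± 18.6 CPM in IL-4 (SD, n = 3 each; edgeR adjusted p = 0.0031). Flna (filamin A, an actin crosslinker that binds beta tails) fell 1.24-fold, to 635 ± 29.6 CPM in IL-4+CGRP against 787 ± 24.0 CPM in IL-4 (SD, n = 3 each; edgeR adjusted p = 0.0031), and Evl, an actin assembly factor, fell 1.16-fold (adjusted p = 0.032). The Evl call ended with scaling by library totals only, with a dispersion estimate that is not robust and with the replicate number as a block. It also ended without any single library other than IL-4+CGRP replicate 2.

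Of 18 membrane partners of integrins, all tested, 1 rose and 1 fell (5.56% each), against 2.32% and 1.54% of all tested genes. The tetraspanin Cd9, which sits beside beta 1 integrins, fell 1.24-fold, to 70.8 ± 0.691 CPM in IL-4+CGRP against 88.2 ± 5.68 CPM in IL-4 (SD, n = 3 each; edgeR adjusted p = 0.0094). That call ended with replicate 1 or 2 of IL-4 left out, and with the replicate number as a block (edgeR adjusted p = 0.051). The heparan sulfate proteoglycan Sdc4, a co-receptor for fibronectin, rose 1.18-fold (edgeR adjusted p = 0.035). The Sdc4 call ended under limma-voom, with a dispersion estimate that is not robust and with the replicate number as a block. It also ended without any single library other than IL-4+CGRP replicate 2. With IL-4+CGRP replicate 2 left out, 5 of the partners were lower, against 950 of all 13492 genes tested in that fit.

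Among the 16 integrin chains outside the 10, 8 were tested, 1 rose (12.5%) and 2 fell (25%), against 2.32% and 1.54% of all tested genes. Itgax (CD11c) fell 2.37-fold to 62.9 ± 5.35 CPM in IL-4+CGRP against 149 ± 3.91 CPM in IL-4 (SD, n = 3 each; edgeR adjusted p = 1.3e-06), Itgam (CD11b) rose 1.33-fold (adjusted p = 0.0012), and the shared beta 2 chain Itgb2 fell 1.12-fold (adjusted p = 0.049). The Itgb2 call ended under 7 of the other ways of processing and without any single library other than IL-4+CGRP replicate 2. The other 8 chains, Itga3, Itga7, Itga8, Itga11, Itgae, Itgb4, Itgb6 and Itgb8, had at most 11 counts in any library and were not tested.

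**Figure D4:**
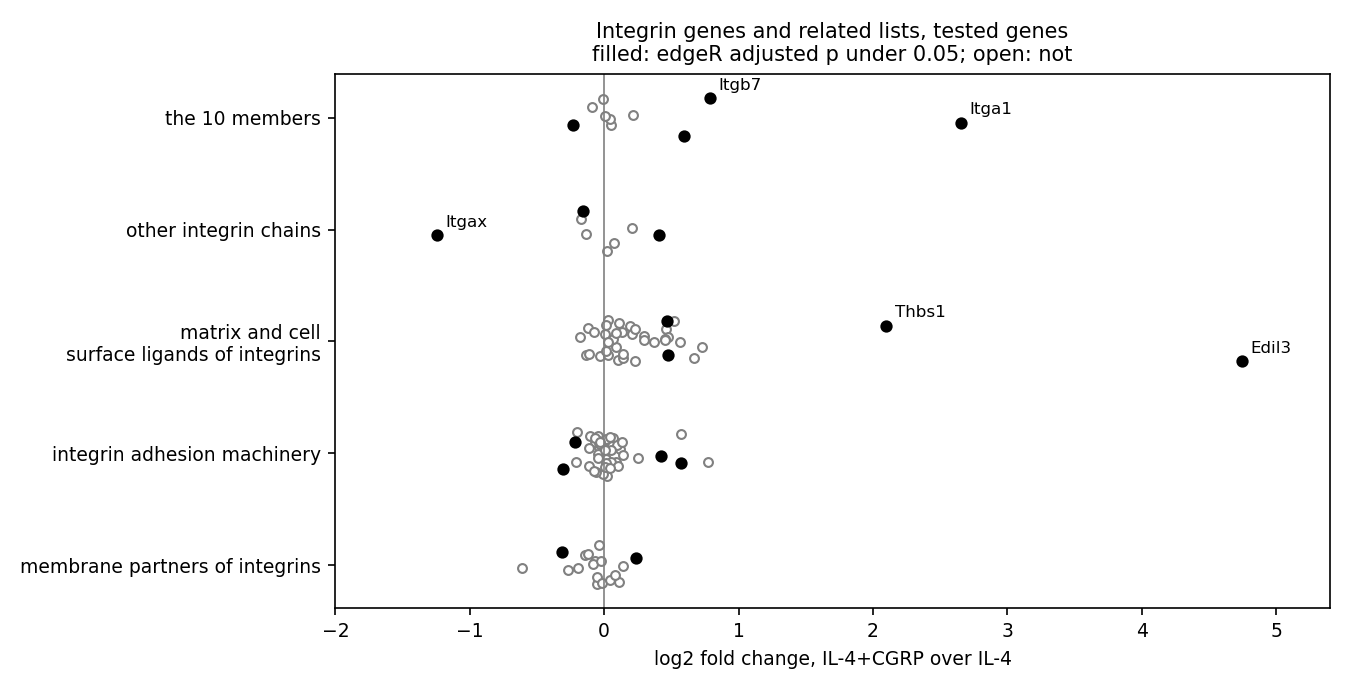
Log2 fold change, IL-4+CGRP over IL-4, of the tested genes among the 10 integrins and in 4 related lists (1 point per gene, spread up and down only to separate points); filled points passed an edgeR adjusted p of 0.05. Itga1 (2.65), Thbs1 (2.10) and Edil3 (4.75) lie farthest to the right and Itgax (-1.24) farthest to the left.

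The 17 other ways of processing left the calls of Itga1, Itga9 and Itgb7 past the threshold. Over them the log2 fold change of Itga1 ran from 2.36 to 3.06 (highest adjusted p = 0.011), that of Itga9 from 0.52 to 0.70 (highest adjusted p = 0.037) and that of Itgb7 from 0.77 to 0.82 (highest adjusted p = 7.6e-04), by edgeR or, in 2 of the 17, by DESeq2 and limma-voom. Itga5 stayed below 0 in all 17, from -0.27 to -0.21, and passed in 10 of them. Itgb5 passed in 1, and Itga4, Itga6, Itgav, Itgb1 and Itgb3 in 0. Without IL-4+CGRP replicate 2 the log2 fold changes of members not called were 0.082 for Itga4, 0.081 for Itga6, 0.073 for Itgav, 0.012 for Itgb1, 0.20 for Itgb3 and -0.12 for Itgb5.

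**Figure D5:**
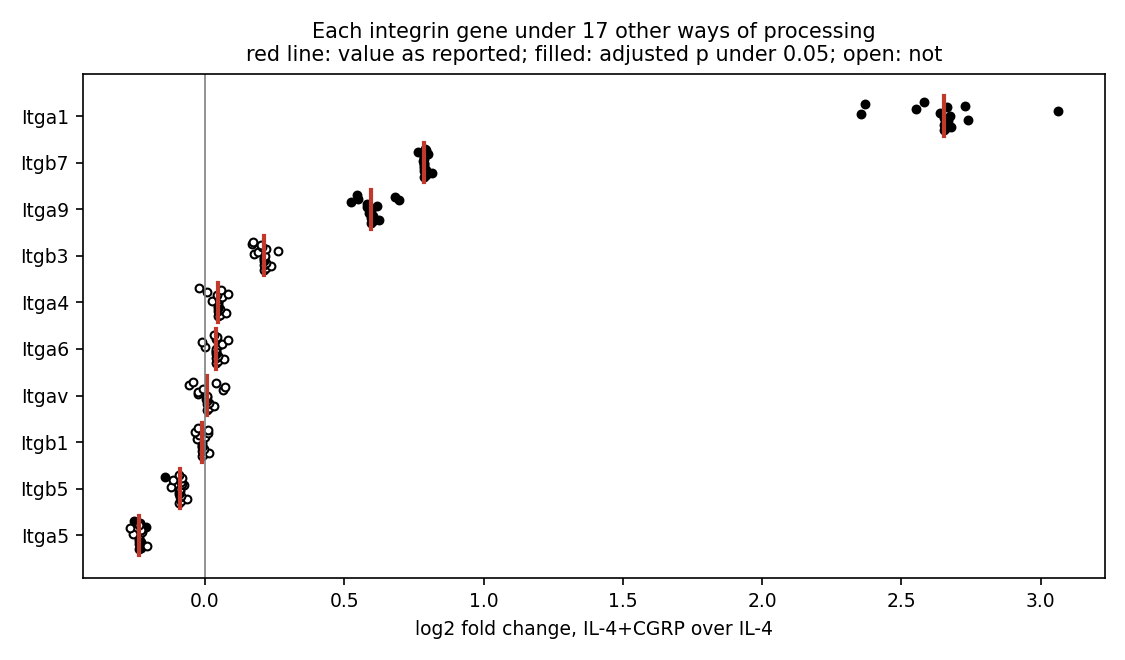
Log2 fold change of each integrin gene, IL-4+CGRP over IL-4, as reported (red line) and under 17 other ways of processing (points); filled points have an adjusted p under 0.05. Itga1, Itgb7 and Itga9 are filled throughout, Itga5 in 10 of 17, and Itgav, Itga4, Itga6 and Itgb1 have points on both sides of 0.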

How the data were processed

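RNA was sequenced from 6 macrophage libraries. The submitters' processing notes name fastp, HISAT2, StringTie and build GRCm39, with no versions, annotation or counting step. The deposited table holds the authors' estimated counts for 57180 genes, not normalized, which were rounded to whole numbers for testing. Between 23.3% and 26.6% of each library's nonzero values were not whole (tolerance 1e-06). The deposited group means were only checked against the library columns, and the gene lengths are those the authors list.

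Genes were filtered with filterByExpr (13260 kept, with 99.91% of counts). After TMM scaling, groups were compared with edgeR 4.0.16 under R 4.3.3, by its robust quasi-likelihood F test, two-sided and without covariates. P-values were adjusted by Benjamini-Hochberg over the tested genes, at a threshold of 0.05. CPM are counts over TMM-scaled totals. SEs are the log2 fold change over the square root of F. Alternatives used DESeq2 1.42.0, limma 3.58.1, other scalings and filters, the replicate block, left-out libraries and removal of a gene length trend. Scripts were tested on simulated data.

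The members and lists were chosen with earlier results of these data known. Named genes are the 10 members, up to 4 called genes per list with the smallest p (2 where none was called), untested members and overlapping genes; of the cell type markers only those beside a result are printed. Vcam1, Fn1, Spp1, Mfge8, Cd3e and Pdgfra were named as known ligands or markers after their values were seen. Promoter sequences are from RefSeq (GRCm38.p6) and overlaps from GENCODE M21 on that build.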

Additional observations from a re-analysis of the deposited data

How the results depend on the processing

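The count of higher members, 3, did not change in any of the 17 alternatives. The count of lower members, 1, was 0 with library totals alone and 0 with the replicate number as a block, and ran from 0 to 2 when libraries were left out. Over all genes, 584 were higher and 434 lower without a filter on counts, 471 and 389 after removal of the length trend, and 176 and 86 with the replicate block. Leaving out libraries gave 140 to 1066 higher and 80 to 1187 lower genes, the highest counts without both IL-4 replicate 1 and IL-4+CGRP replicate 2. Deviations from the group means correlated at -0.188, -0.182 and 0.130 between libraries of the same number, for numbers 1 to 3. Between libraries of different numbers they ran from -0.178 to 0.287, the highest for IL-4+CGRP replicate 2 with IL-4 replicate 1. With 3 libraries per group, these correlations cannot show whether equal numbers share an animal or day. The block ended the Itga5 call (edgeR adjusted p = 0.13) and no other member's.

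Log2 fold changes changed sign only in members that were not called. Itga4 was at -0.023 and Itgav at -0.044 with the length trend removed, and Itgb1 at 0.016 with library totals alone. With 1 library left out, or both IL-4 replicate 1 and IL-4+CGRP replicate 2, Itga6 ran from -0.012 to 0.081, Itgav from -0.059 to 0.073 and Itgb1 from -0.035 to 0.012.

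Counts in the lists were small and moved. Lower genes of the adhesion machinery were 1 with library totals alone, a fit that was not robust or the block, and 1 to 2 without libraries, while the higher ones ran from 2 to 4. Higher ligands were 2 by DESeq2 and 2 with the block, and 2 to 11 without libraries; lower ligands were 1 with no count filter, 1 with the length trend removed and 0 to 3 without libraries. Higher membrane partners were 0 by limma-voom, in a fit that was not robust and with the block, 2 with the length trend removed and 0 to 1 without libraries. Lower partners were 0 with the block and 0 to 6 without libraries. Lower chains outside the 10 were 1 with upper quartile factors, library totals alone, a mean count of at least 50, DESeq2, limma-voom, a fit that was not robust or the block, and 1 to 3 without libraries. The causes were not tested. Depth limits the values of scarce genes, among them Itga1 and Edil3, at 47 and 6 summed counts in IL-4.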
